A study of Homo sapiens with 4 samples.

Results

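The genes described here are the aminoacyl-tRNA synthetases of the cytosol and of the mitochondrion, together with the scaffold proteins of the multisynthetase complex. They were taken from a fixed list of 38 genes, 19 cytosolic enzymes, 16 mitochondrial enzymes and 3 scaffolds, matched to the junction tables by Ensembl gene identifier. Of the 38, 37 had at least 1 annotated splice junction in the tables, and 36 had the 20 or more reads over both tables that the comparison asked for. They stand among 35224 gene identifiers with a junction of their own, of which 10956 had 20 or more reads. MARS2, the mitochondrial methionine enzyme, is known as a gene without introns and had no junction. PARS2, the mitochondrial proline enzyme, had 5 K562 and 0 HepG2 reads, so neither enters a comparison.

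The study profiled ribosomes in K562, established from chronic myelogenous leukemia and with erythroid features, and in HepG2, established from a liver tumor and with hepatocyte features, with 2 samples each. Lysis was in buffer with CHX (cycloheximide, which holds elongating ribosomes in place), RNA outside the ribosomes was digested with RNase I, and ribosomal RNA was removed with RiboZero, in K562 and HepG2 alike. The labels name no treatment, growth medium or cell density. Each line is 1 table of reads over splice junctions in which both samples are pooled, so no value below has a replicate check. Intervals are exact at 95% and reflect counting error alone.

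Aminoacyl-tRNA synthetases join each amino acid to its transfer RNA, and so supply the ribosome with its substrates. Human cells keep 1 set of enzymes for the cytosol and a largely separate, nuclear-encoded set for the mitochondrion, which makes a few subunits of the respiratory chain. Several cytosolic enzymes sit in a multisynthetase complex held by the scaffolds AIMP1, AIMP2 and EEF1E1. GARS1 (glycine) and KARS1 (lysine) serve both compartments from a single gene, and mitochondrial glutamine is made on its transfer RNA from glutamate, which EARS2 attaches and the GatCAB amidotransferase converts.

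The K562 table held 7487508 uniquely mapped junction reads (74.0% of those mapped) and HepG2 held 9927809 (82.7%). Marker genes followed the labels, apart from the erythroid gene EPOR, with 27 K562 and 17 HepG2 reads (ratio 1.58, 0.831 to 3.09). The erythroid genes GATA1, TAL1, KLF1 and RHAG had 776, 130, 234 and 7365 K562 reads and were at 0 in HepG2. The hepatocyte genes ALB and APOB had 349063 and 120618 HepG2 reads against 41 and 17 for K562, and HNF4A had 1545 against 0. Reads were scaled by TMM effective depth, which put the median gene at a log2 ratio of K562 to HepG2 of -0.01, where scaling by total reads put it at 0.41. In lysates of whole cultures, fewer cells with a gene on and less of it per cell cannot be told apart, nor can less messenger RNA and fewer ribosomes on it.

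To be counted as higher, a gene needed an interval wholly past 2-fold. K562 was higher for 1836 of the 10956 genes (16.8%) and HepG2 for 2402 (21.9%). Of the 19 cytosolic synthetases, 5 were higher in K562 and 0 in HepG2, and the median log2 ratio was 0.81, which is 1.75-fold. Of 14 mitochondrial synthetases, 1 was higher in K562 and 2 in HepG2, with a median of 0.05. Of the 3 scaffolds, 1 was higher in HepG2, with a median of -0.67. Intervals wholly above 1 were found for 17 of the 19 cytosolic enzymes, against 40.3% of all genes, and wholly below 1 for the other 2, against 41.0% of all genes. With total-read scaling, 11 of the 19 passed the 2-fold rule in K562, and so did 2656 of all 10956 genes.

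The 5 cytosolic enzymes counted as higher in K562 were WARS1, LARS1, TARS1, YARS1 and FARSB. They charge tryptophan, leucine, threonine, tyrosine and phenylalanine, and 1 of them, LARS1, is an enzyme of the multisynthetase complex. WARS1, the tryptophan enzyme (ENSG00000140105, GRCh38 chromosome 14, 100333788 to 100376805, minus strand), stood farthest apart. It had 6140 K562 and 1039 HepG2 reads, a ratio of 5.88 (5.51 to 6.29) or 2.56 on the log2 scale. All 13 of its junctions with 10 or more reads had more in K562 after scaling, by log2 ratios of 0.58 to 6.13.

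The largest of these WARS1 junction ratios belonged to alternative junctions at the start of the gene. The annotation holds a form that includes the exon with the start codon and forms that skip it and begin at a later ATG, with a coding sequence 123 bases shorter (1290 against 1413 bases). The skipping forms lack the N-terminal end of the enzyme and not its catalytic domain. The junctions are shown because they tell these forms apart. Each line gives 15 bases of exon on either side of the junction, read from a GENCODE 29 transcript, in lower case upstream and in capitals downstream.
WARS1 start-codon exon included: ggaaatgcgtcaaagGATGAAATTGATTCT
WARS1 exon skipped, downstream first exon: tcttccacaacctggGATGAAATTGATTCT
WARS1 exon skipped, upstream first exon: gcccggctgggcaggGATGAAATTGATTCT
All 3 junctions enter the same downstream exon, so the capitals are identical and only the upstream exon differs.

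The junction from the downstream first exon that skips the start-codon exon (chr14:100361922-100375282, intron coordinates) took 281 of the 998 K562 reads that enter its acceptor, 28.2% (25.4 to 31.1). In HepG2 it had 4 of 182, 2.20% (0.602 to 5.53). It was the 1 junction counted among 195 junctions of 31 of these genes with 20 or more reads at a shared site in each table, by the rule of shares at least 20 points apart with separate intervals. Over all genes, 928 of 24255 junctions (3.83%) were counted. With every junction that skips the exon from an upstream exon set against the 1 inclusion junction, skipping took 32.3% (29.4 to 35.3) of reads in K562, 321 against 672. In HepG2 it took 15.4% (10.5 to 21.5), 28 against 154. The skipping junctions shown above lie 24 bases before their start codon, and the inclusion junction lies 99 coding bases after its own. Both shares thus set footprints before a start codon mainly against footprints in coding sequence, and are not shares of transcripts. Over all genes, junctions of the 5′ untranslated region held 6.47% of reads in K562 and 3.29% in HepG2.

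The exon upstream differed between the lines as well, in a share chosen after its values were seen. Of reads leaving the upstream exons of WARS1 that precede the start codon, 456 of 509 in K562 (89.6%, 86.6 to 92.1) left the exon whose boundary is at 100375283. In HepG2 7 of 38 did (18.4%, 7.74 to 34.3). The other upstream exon, with its boundary at 100376260, had 53 K562 and 31 HepG2 reads. Of these, 2 in K562 and 4 in HepG2 joined it to the exon at 100375283. That exon is thus not always the first, and transcripts with both exons can be read on either side of this share. The downstream exon thus held nearly all of the surplus of K562 among these reads.

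**Figure D1:**
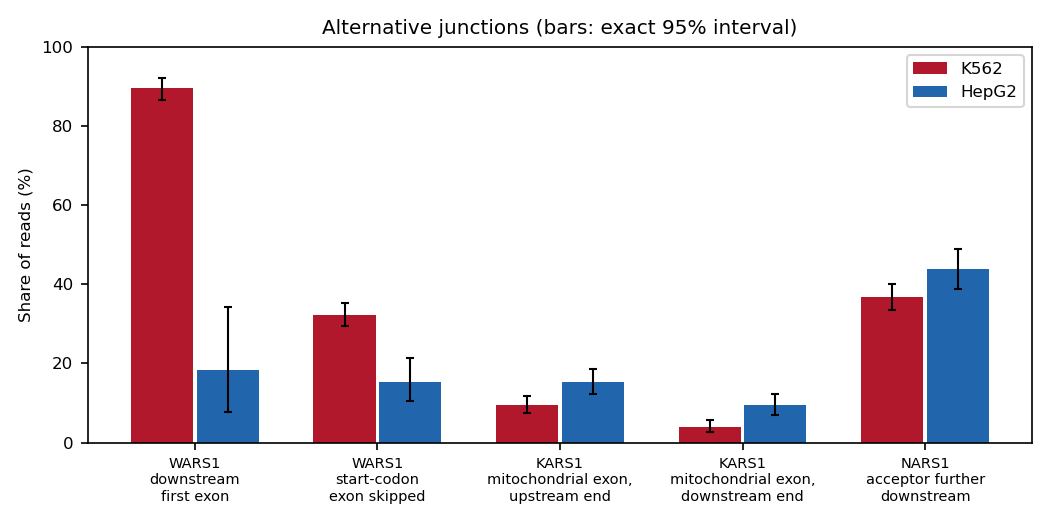
Share of reads in percent (vertical axis) for 5 alternative choices in WARS1, KARS1 and NARS1, with K562 and HepG2 side by side and bars giving exact 95% intervals. The WARS1 bars labelled downstream first exon, an exon also joined from the upstream first exon, stand at 89.6% in K562 and 18.4% in HepG2. The bars of the KARS1 and NARS1 choices are taller in HepG2 by smaller amounts.

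LARS1 (leucine, chromosome 5, 146113038 to 146182660), a class I enzyme that is also known as a leucine sensor upstream of mTORC1, had 5715 K562 and 2044 HepG2 reads, a ratio of 2.78 (2.65 to 2.93). Each of its 31 junctions had more in K562, by log2 ratios of 0.50 to 2.65. TARS1 (threonine, chromosome 5, 33440696 to 33469539) had 7677 and 2789 reads, a ratio of 2.74 (2.62 to 2.86), with more in K562 at all 18 junctions. YARS1 (tyrosine, chromosome 1, 32775237 to 32818153) had 2926 and 1115, a ratio of 2.61 (2.44 to 2.80), with 12 of 13 junctions on that side. LARS1, TARS1 and YARS1 thus differed between the lines by nearly the same fold, and along their length.

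FARSB, the beta subunit of the phenylalanine enzyme (chromosome 2, 222570536 to 222656337), had 5194 and 2424 reads, a ratio of 2.13 (2.03 to 2.24). Its lower bound was near the threshold, and with all mapped reads it was not counted (log2 ratio 1.05). FARSA, the alpha subunit, had 2982 and 1509 reads, a ratio of 1.97 (1.85 to 2.09), and was not counted. The ratio of FARSB to that of FARSA was 1.08 (1.002 to 1.17), so these subunits of a single heterotetramer differed between the lines by close to the same fold although they fell on opposite sides of the threshold.

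Further enzymes lay just under the rule. CARS1 (cysteine) had 1653 and 777 reads, a ratio of 2.12 (1.94 to 2.31). EPRS1, which carries the glutamate and the proline activity on 1 chain, had 7725 and 3925 reads, a ratio of 1.96 (1.88 to 2.04). MARS1 (methionine), which also charges the initiator transfer RNA, had 3696 and 1875, a ratio of 1.96 (1.86 to 2.08). Each of these intervals spans 2, so the count of 5 depends on where the threshold is set. CARS1, EPRS1, FARSA, IARS1, MARS1 and SARS1 were the 6 cytosolic enzymes added by total-read scaling.

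SARS1 (serine) had 4622 and 2625 reads, a ratio of 1.75 (1.67 to 1.84), which is the median cytosolic enzyme. IARS1 (isoleucine) had 7209 and 4347, a ratio of 1.65 (1.59 to 1.71), and GARS1 (glycine) had 6259 and 4282, a ratio of 1.45 (1.40 to 1.51). A group of enzymes was closer to even: NARS1 (asparagine) at 5779 and 4639 reads had a ratio of 1.24 (1.19 to 1.29), and AARS1 (alanine) at 3986 and 3279 had 1.21 (1.16 to 1.27). RARS1 (arginine) at 3149 and 2711 reads had 1.16 (1.10 to 1.22). VARS1 (valine) at 3616 and 3156 had 1.14 (1.09 to 1.20), and HARS1 (histidine) at 1406 and 1269 had 1.10 (1.02 to 1.19). The intervals of these 5 enzymes lay wholly between 1 and 2.

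The 2 cytosolic enzymes with an interval below 1 were both members of the complex. QARS1, the glutamine enzyme (chromosome 3, 49095932 to 49105135), had 1502 K562 and 2826 HepG2 reads, 1.89-fold (1.77 to 2.01) more in HepG2. Its difference was spread unevenly: 21 of 24 junctions had more in HepG2, and the junction after coding base 703 alone had 119 K562 and 581 HepG2 reads. QARS1 was the least read cytosolic enzyme per junction in K562, at a level of 7.79 unique reads per coding junction per 1000000 reads of effective depth.

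KARS1, the lysine enzyme (chromosome 16, 75627474 to 75648643), had 3822 K562 and 4065 HepG2 reads, a ratio of 0.94 (0.90 to 0.98). Its log2 ratio changed sign, from -0.10 to 0.32 with total-read scaling and to 0.05 with its most-read junction left out. Its junctions were split, 8 of 16 on either side. KARS1 makes its mitochondrial form by including an exon near the start that the cytosolic form skips, and the annotated mitochondrial coding sequence is 84 bases longer (1875 against 1791). The junctions at both ends of that exon are shown because they report the compartment, in the same notation as for WARS1.
KARS1 cytosolic, exon skipped: gaaactgagcaagaaTGAGCTGAAGAGACG
KARS1 mitochondrial, into the exon: gaaactgagcaagaaGTGGTGGTAATCATT
KARS1 mitochondrial, out of the exon: ttctgatcaaagaagTGAGCTGAAGAGACG
The cytosolic junction shares its upstream bases with the junction into the exon and its downstream bases with the junction out of it.

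The junction into the mitochondrial exon of KARS1 (chr16:75644463-75647577) took 79 of the 833 K562 reads that leave its donor, 9.48% (7.58 to 11.7), and 80 of the 523 HepG2 reads, 15.3% (12.3 to 18.7). The junction out of it (chr16:75641724-75644282) took 32 of the 788 K562 reads that enter its acceptor, 4.06% (2.79 to 5.68), and 46 of the 488 HepG2 reads, 9.43% (6.98 to 12.4). The cytosolic junction had 753 and 442 reads. Both ends gave the mitochondrial exon a larger share in HepG2 with intervals apart, under the 20 points that the rule asked for. The values at the ends of 1 exon differ from each other, and the junction into the exon lies 34 bases before the mitochondrial start codon.

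NARS1 has a choice between acceptors 3 bases apart early in its coding sequence, described after its values were seen. The junctions are shown because the capitals differ only by the leading 3 bases.
NARS1 principal acceptor: caggcatggtgctagCAGAGCTGTACGTCT
NARS1 acceptor 3 bases downstream: caggcatggtgctagAGCTGTACGTCTCTG
The downstream acceptor (chr18:57620649-57621707) took 301 of the 818 K562 reads that leave the donor, 36.8% (33.5 to 40.2), and 167 of the 381 HepG2 reads, 43.8% (38.8 to 49.0). The principal acceptor had 491 and 214 reads. Both acceptors were used in each line, with intervals that overlap between the lines. From the same donor, a junction that skips the next exon (chr18:57615976-57621707) had 26 K562 and 0 HepG2 reads.

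The 7 enzymes of the multisynthetase complex and the 12 free cytosolic enzymes were compared as groups. Over all genes, 16.8% were higher in K562, and the groups are too small to be told apart from that share by their counts. In the complex, 1 of 7 was higher in K562, with a median log2 ratio of 0.72. The range from QARS1 to LARS1 was -0.92 to 1.48. Among the free enzymes, 4 of 12 were higher in K562, with a median of 0.89, and all 12 intervals lay above 1. By structural class, 3 of 9 cytosolic class I enzymes were higher in K562 with a median of 0.97, and 2 of 9 class II enzymes with a median of 0.54. EPRS1, with an enzyme of each class on its chain, was in neither group.

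**Figure D2:**
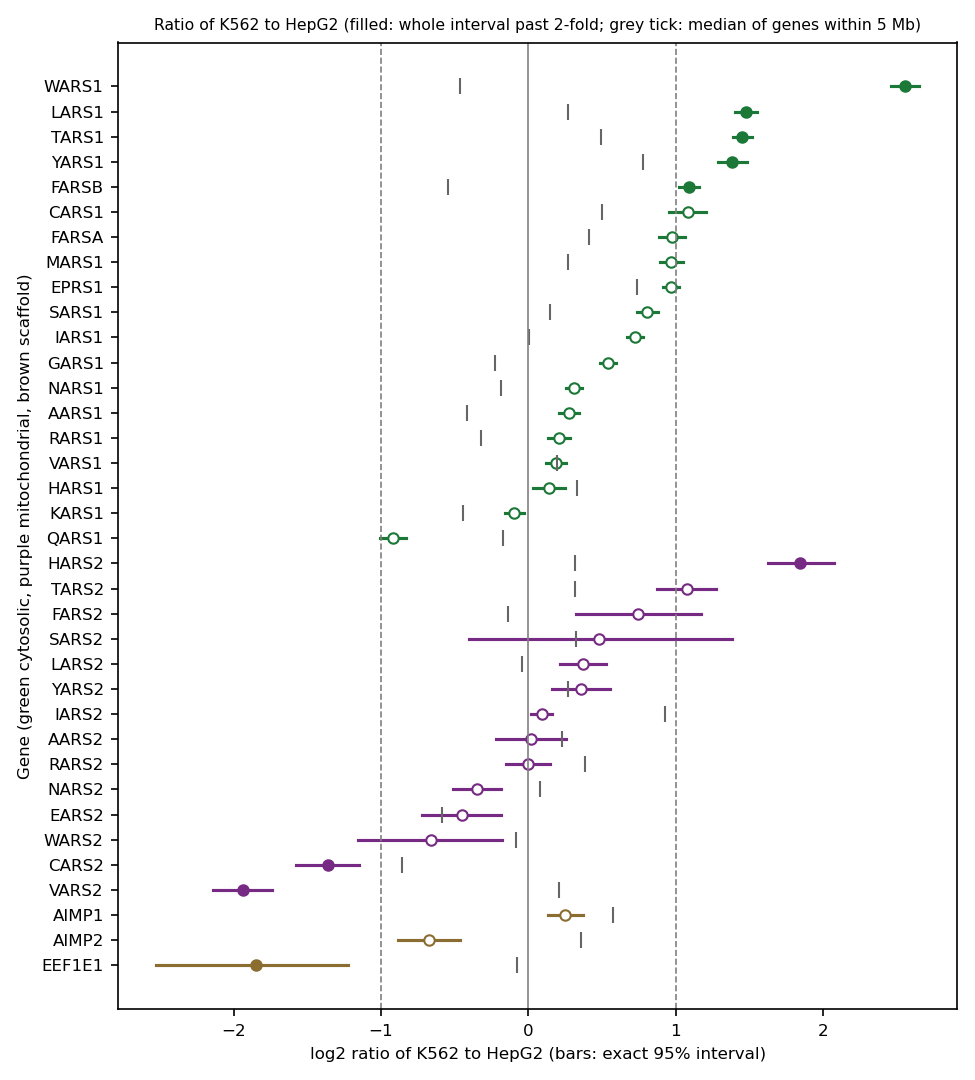
log2 ratio of K562 to HepG2 (horizontal axis) for the 36 genes with 20 or more reads, with exact 95% intervals, filled points where the whole interval lies past 2-fold and a grey tick at the median of genes within 5 Mb. Cytosolic enzymes (green names) lie mostly to the right of 0, up to WARS1 at 2.56, and mitochondrial enzymes (purple names) on both sides, from VARS2 at -1.94 to HARS2 at 1.85.

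Among the mitochondrial enzymes the 3 that passed the rule went in different directions. HARS2 (histidine, ENSG00000112855, chromosome 5, 140691426 to 140699318) had 749 K562 and 207 HepG2 reads, a ratio of 3.60 (3.08 to 4.22), with more in K562 at all 13 junctions. CARS2 (cysteine, chromosome 13, 110641412 to 110713603), which is also known to make cysteine persulfides, had 252 and 644 reads, 2.57-fold (2.22 to 2.98) more in HepG2. VARS2 (valine, chromosome 6, 30908242 to 30926459) had 253 and 965, 3.83-fold (3.33 to 4.42) more in HepG2. CARS2 had more in HepG2 at 13 of 14 junctions and VARS2 at 24 of 25.

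A limit applies to both HepG2 calls. CARS2 was not counted with total-read scaling (log2 ratio -0.94). VARS2 shares 12 junctions with the neighbouring gene GTF2H4, none of them in its principal coding set, and these held 467 reads in K562 and 278 in HepG2. With such junctions counted the VARS2 log2 ratio was -0.78 and it was not counted.

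IARS2 (isoleucine), the most read mitochondrial enzyme, was close to even at 3216 and 3004 reads, a ratio of 1.07 (1.01 to 1.12). TARS2 (threonine) had 654 and 309 reads, a ratio of 2.11 (1.84 to 2.42), and FARS2 (phenylalanine) had 128 and 76, a ratio of 1.68 (1.25 to 2.26). LARS2 (leucine) had 750 and 577, a ratio of 1.29 (1.16 to 1.44), and YARS2 (tyrosine) had 496 and 385, a ratio of 1.28 (1.12 to 1.47). These 5 and HARS2 were the 6 mitochondrial enzymes with an interval above 1. YARS2 owed this to 1 junction, and without its most-read junction its log2 ratio was -0.03 against 0.36.

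On the other side, EARS2 (glutamate) had 202 K562 and 275 HepG2 reads, 1.37-fold (1.14 to 1.65) more in HepG2. WARS2 (tryptophan) had 59 and 93, 1.58-fold (1.13 to 2.23) more in HepG2. NARS2 (asparagine) had 543 and 687, 1.27-fold (1.13 to 1.43) more in HepG2, and its sign changed with total-read scaling. AARS2 (alanine) at 299 and 294 reads had a ratio of 1.01 (0.859 to 1.19), and RARS2 (arginine) at 745 and 743 had 0.998 (0.90 to 1.11), with intervals that hold 1. SARS2 (serine) had 28 and 20 reads, a ratio of 1.39 (0.757 to 2.61), nearly all (27 and 20) from the 1 of its 15 principal coding junctions that no other gene identifier shares. With the shared junctions it had 225 and 357 reads and a ratio of 0.627 (0.529 to 0.743), so its direction depends on that choice.

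Of the scaffolds, AIMP1, which also gives rise to the secreted cytokine EMAP II, had 1259 K562 and 1053 HepG2 reads, a ratio of 1.19 (1.10 to 1.29). AIMP2, which holds much of the complex together, had 301 and 478, 1.60-fold (1.38 to 1.85) more in HepG2. EEF1E1, which links the methionine enzyme to the complex (chromosome 6, 8073360 to 8102578), had 27 and 97, 3.61-fold (2.34 to 5.75) more in HepG2, and was counted as higher there. Only 19.5% of the mapped reads of EEF1E1 were unique, against 85.2% or more for the other 35 genes, and 2 of its 3 principal coding junctions are shared with the read-through gene EEF1E1-BLOC1S5. With those junctions it had 756 and 875 reads, a ratio of 0.86 (0.779 to 0.949), so the EEF1E1 call rests on few reads of a poorly unique gene.

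Levels of different genes were compared as reads per coding junction of 1 principal transcript, per 1000000 reads of effective depth, since a gene with more junctions has more places to be read. In K562, WARS1 stood at the top with 74.7 (72.7 to 76.7), followed by SARS1 with 53.8 (52.2 to 55.4), TARS1 with 51.1 (upper bound 52.3) and NARS1 with 50.3 (49.0 to 51.6). The intervals of SARS1 and TARS1 overlap, as do those of TARS1 and NARS1. In HepG2, NARS1 stood at the top with 41.4 (40.2 to 42.7), followed by KARS1 with 36.5 (35.3 to 37.6), GARS1 with 32.2 (31.2 to 33.2) and SARS1 with 31.1 (29.9 to 32.3). Those of GARS1 and SARS1 overlap. WARS1 was place 17 of 36 in HepG2, at 13.4 (12.6 to 14.2). EEF1E1 and SARS2 enter this order with 1 coding junction each, the one that no other gene shares. From it EEF1E1 stood at 1.92 in K562 and 7.95 in HepG2. With its shared junctions it stood at 30.2 and 35.1, in HepG2 between KARS1 and GARS1, so its place depends on that choice.

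**Figure D3:**
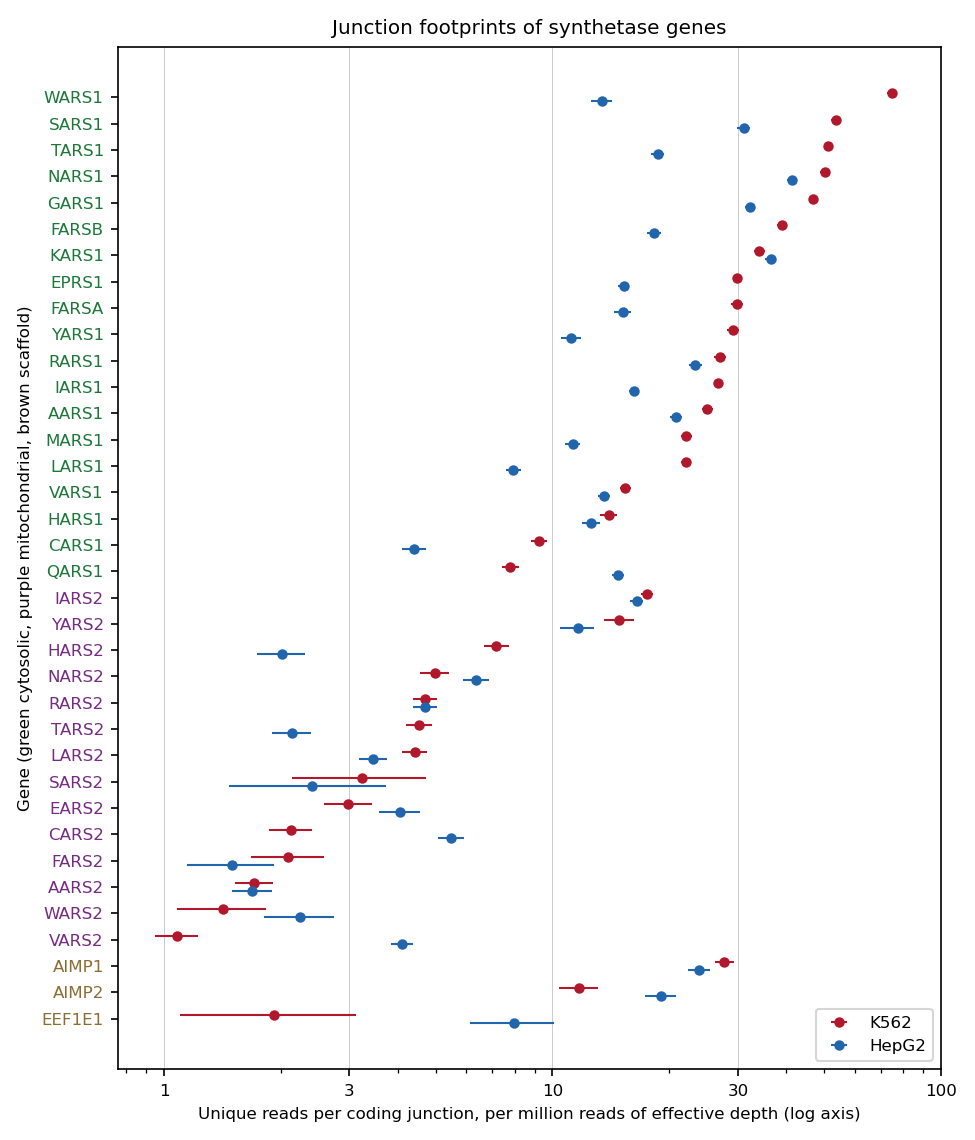
Unique reads per coding junction per 1000000 reads of effective depth (horizontal log axis) for the 36 genes in K562 and HepG2, with exact 95% intervals of counting error. Cytosolic enzymes (green names) span 7.79 to 74.7 in K562 and mitochondrial enzymes (purple names) 1.08 to 17.5. The points of EEF1E1 and SARS2 leave out the coding junctions shared with another gene.

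The mitochondrial enzymes were read at lower levels than the cytosolic ones in both lines. Their median level was 3.83 reads per coding junction in K562 (14 genes) against 29.2 for the 19 cytosolic enzymes, a 7.62-fold difference between the lists. In HepG2 the medians were 3.75 and 15.3, a 4.06-fold difference. The ranges overlapped only at IARS2 and YARS2 in K562, at 17.5 and 14.9 against a lowest cytosolic level of 7.79, and at 5 mitochondrial enzymes in HepG2, where the lowest cytosolic level was 4.40 for CARS1. With TMM scaling, the median level of the mitochondrial set was thus close to even between the lines, and that of the cytosolic set was not. This evenness depends on the scaling. With total-read scaling the median log2 ratio was 0.47 for the mitochondrial enzymes and 1.23 for the cytosolic ones.

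As a share of all synthetase reads, the mitochondrial enzymes made up 8.97% of the K562 total (8.79 to 9.15) and 14.04% of the HepG2 total (13.8 to 14.3). The cytosolic enzymes together took 1.18% of all single-gene reads in K562 and 0.528% in HepG2. The mitochondrial enzymes took 0.116% and 0.0863%. These shares of the whole table are not scaled for composition, while the ratio of mitochondrial to cytosolic reads within a table does not depend on scaling.

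The same contrast was read for each amino acid with an enzyme in both compartments, 15 pairs over 14 amino acids, with FARSA and FARSB each set against FARS2. The cytosolic enzyme had more reads per coding junction, with the interval above 1, in all 15 pairs in K562 and in 12 in HepG2. The median ratio of cytosolic to mitochondrial level was 10.1 in K562 and 5.97 in HepG2. The ratio was larger in K562 for 12 pairs, larger in HepG2 for 1 pair, and not apart for FARSA with FARS2 and SARS1 with SARS2. The serine result depends on the junctions used for SARS2, whose level was 3.24 in K562 and 2.41 in HepG2 from its own junction and 1.80 and 2.87 with the shared ones.

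The tryptophan pair had the largest ratio in K562 and the largest difference between the lines, while its HepG2 ratio was the median of the pairs. WARS1 stood at 52.8 times (40.8 to 69.4) the level of WARS2 in K562 and at 5.97 times (4.83 to 7.47) in HepG2. The K562 ratio was 8.83 times (6.26 to 12.5) the HepG2 ratio. WARS2 itself had more reads in HepG2, which rests on 1 junction: with its most-read junction left out the WARS2 log2 ratio was 0.04, against -0.66.

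The cysteine and valine pairs came next, each with a mitochondrial enzyme counted as higher in HepG2. CARS1 stood at 4.34 times the level of CARS2 in K562 and at 0.802 times (0.721 to 0.892) in HepG2, so per coding junction, though not in total reads, the mitochondrial cysteine enzyme was the higher of the pair in HepG2. The cysteine ratio was 5.42 times (4.56 to 6.45) as large in K562. VARS1 stood at 14.3 times the level of VARS2 in K562 and at 3.31 times in HepG2, a difference of 4.31 times (3.72 to 5.02). VARS1 was thus the higher of its pair per coding junction in both lines.

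The histidine pair was the exception in direction. HARS1 stood at 1.95 times (1.78 to 2.13) the level of HARS2 in K562 and at 6.26 times (5.39 to 7.30) in HepG2, and the K562 ratio was 0.311 times (0.260 to 0.371) the HepG2 ratio. Near-even pairs were those of isoleucine, at 1.53 in K562 and 0.985 (0.940 to 1.03) in HepG2, and tyrosine, at 1.96 and 0.965 (0.858 to 1.09). IARS2 and YARS2 are the most read mitochondrial enzymes per coding junction, and in HepG2 their level was not apart from that of the cytosolic partner.

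Of the remaining pairs, glutamate (EPRS1 with EARS2) had a ratio of 10.01 in K562 and 3.76 in HepG2, 2.66 times (2.20 to 3.22) larger in K562. Leucine had 4.99 and 2.29, 2.18 times (1.92 to 2.47) larger. Asparagine had 10.1 and 6.52, threonine 11.3 and 8.75, and FARSB with FARS2 18.7 and 12.2. Alanine (14.7 and 12.3) and arginine (5.74 and 4.96) differed least among the 12, by 1.19 times (1.003 to 1.41) and 1.16 times (1.03 to 1.30).

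**Figure D4:**
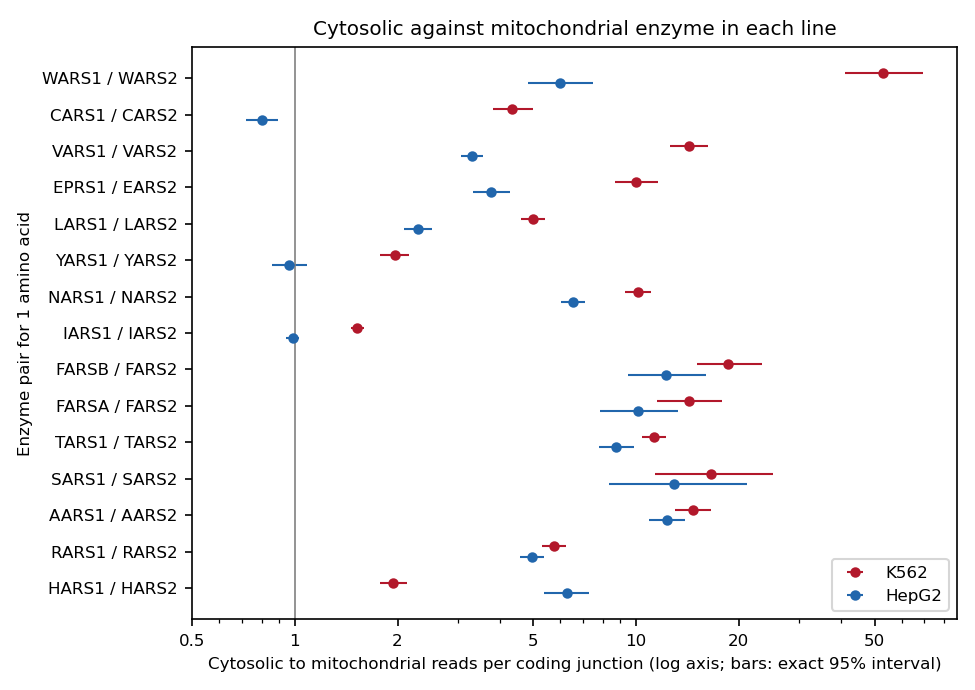
Ratio of cytosolic to mitochondrial reads per coding junction (horizontal log axis) for 15 enzyme pairs in K562 and HepG2, with exact 95% intervals. The K562 point lies to the right of the HepG2 point for most pairs, most of all for tryptophan (52.8 against 5.97), and to the left for histidine (1.95 against 6.26).

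Each junction of a gene was then set against the gene's own ratio, to see whether a difference ran along the coding sequence or came from a few positions. Junctions of 1 gene share their source and are not replicates. Every junction with 10 or more reads lay on the side of the gene for 8 of the 35 genes with at least 3 such junctions: WARS1, LARS1, TARS1, HARS2, FARSA, FARS2, AIMP2 and EEF1E1. With 50 or more reads asked of each junction, 14 of 35 genes measured had every junction on 1 side. KARS1 had 8 of 16 junctions on its own side, GARS1 10 of 17 and RARS1 8 of 14.

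WARS1 and LARS1 show such a separation along the coding sequence. At the junction after coding base 1254 WARS1 had 1035 K562 and 96 HepG2 reads, and at the junction after base 422 it had 119 and 47. For LARS1 the junction after base 1738 had 145 and 23 reads and the junction after base 3192 had 102 and 72. Every coding junction of these genes thus had more in K562, by folds that varied with position. In KARS1, by contrast, the junction after base 62 had 753 K562 and 442 HepG2 reads, while the junction after base 915 had 326 and 564.

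**Figure D5:**
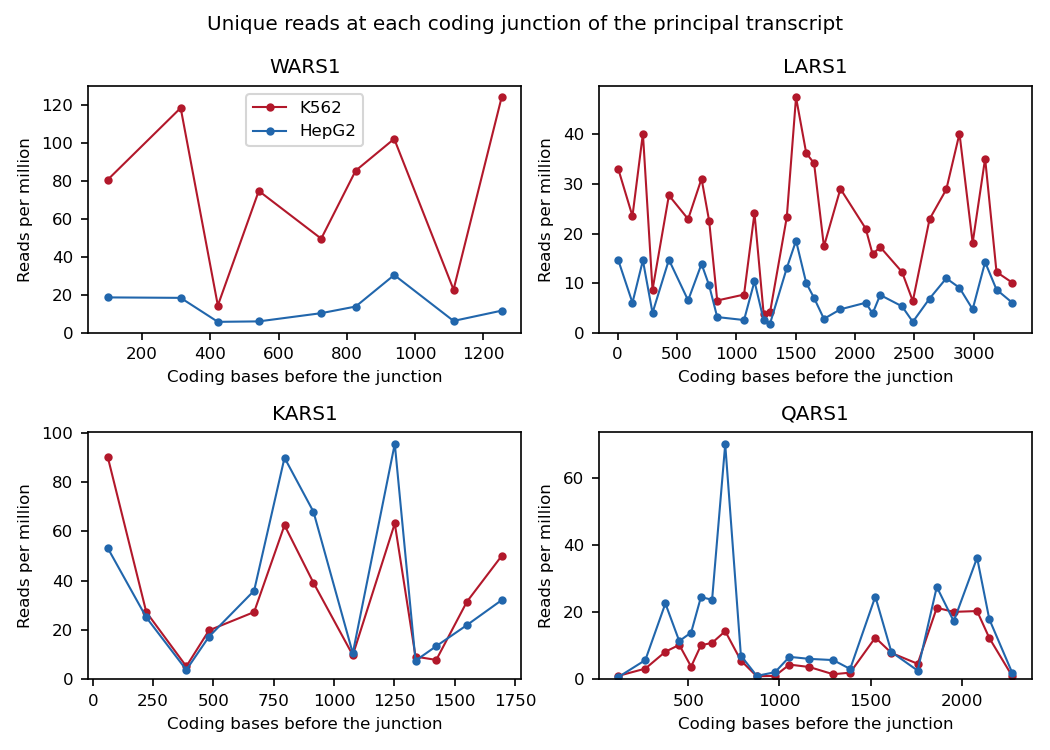
Unique reads per 1000000 reads of effective depth (vertical axis) at each coding junction of the principal transcript against the number of coding bases before it (horizontal axis), for WARS1, LARS1, KARS1 and QARS1 in K562 and HepG2. The K562 line lies above the HepG2 line at every junction of WARS1 and LARS1, and the lines cross in KARS1 and QARS1.

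Both lines are aneuploid, so the median log2 ratio of the genes within 5 Mb was set beside each member. Of the 19 cytosolic enzymes, 16 lay above the median of their neighbours, by a median of 0.60 over the list, and 3 by more than 1 (WARS1 by 3.02, FARSB by 1.64 and LARS1 by 1.21). The neighbours of WARS1 had a median of -0.47, so its region was lower and not higher in K562. The neighbours of YARS1 (0.78) and EPRS1 (0.74) were themselves higher in K562, and those genes stood 0.60 and 0.23 above them. Copy number was not tested.

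Of the 14 mitochondrial enzymes 7 lay above their neighbours, with HARS2 1.53 above and VARS2 2.15 below. CARS2 lay in a region with a neighbour median of -0.86, which leaves it 0.50 below. AIMP2 and EEF1E1 lay 1.03 and 1.78 below theirs. CARS2 was thus counted in a region that was itself lower in K562, while the neighbour medians of HARS2 and VARS2 were 0.32 and 0.21.

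Some of these genes lie in the same chromosome region, adjacent or not, which allows a contrast within that region. HARS1 and HARS2 are head to head on chromosome 5 and overlap at their starts. The ratio of HARS2 between the lines was 3.26 times (2.74 to 3.90) that of HARS1. EPRS1 and IARS2 lie on chromosome 1 with their lowest coordinates 126 kb apart, and the ratio of EPRS1 was 1.84 times (1.73 to 1.96) that of IARS2. VARS1 and VARS2 lie on chromosome 6 with their lowest coordinates 869 kb apart, and the ratio of VARS1 was 4.37 times (3.77 to 5.08) that of VARS2. In each case the genes on a shared stretch of chromosome differed between the lines by unequal amounts.

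The promoters of several synthetase genes are known to carry a C/EBP-ATF response element, the sequence through which ATF4 acts in the amino acid response. The core of this element, TGATGNAA, was searched on both strands in RefSeq promoters of GRCh38.p14, from 250 bases before to 50 after each start. It was found in 7 of 16 cytosolic synthetases with an entry (43.8%), in 1 of 14 mitochondrial ones (7.14%), in 0 of 3 scaffolds and in 1217 of all 27305 genes with an entry (4.46%). The longer motif TGATGNAAT, which contains the core, was found in 2 cytosolic and 0 mitochondrial enzymes and in 333 genes (1.22%). A match describes letters in a window and is not evidence of binding.

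The matches are shown because 5 of them hold the same 8 letters. Each line gives 30 bases in the direction of the gene, with the match in capitals, and TTGCATCA and TTTCATCA are the core on the opposite strand.
AARS1: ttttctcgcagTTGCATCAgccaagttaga
CARS1: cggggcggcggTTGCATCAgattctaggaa
IARS1: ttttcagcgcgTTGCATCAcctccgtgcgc
MARS1: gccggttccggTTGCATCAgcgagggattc
TARS1: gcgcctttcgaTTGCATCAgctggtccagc
GARS1: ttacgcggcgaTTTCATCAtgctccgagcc
NARS1: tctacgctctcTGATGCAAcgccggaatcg
YARS2: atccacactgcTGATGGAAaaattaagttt
The AARS1 window is at chr16:70289675-70289704 (minus strand), the CARS1 window at chr11:3057407-3057436 (minus strand) and the TARS1 window at chr5:33440956-33440985 (plus strand). Those of IARS1 (chr9:92293692-92293721), GARS1 (chr7:30594834-30594863), MARS1 (chr12:57488053-57488082), NARS1 (chr18:57621804-57621833) and YARS2 (chr12:32756076-32756105) hold the other matches. YARS2 was the 1 mitochondrial enzyme with the motif.

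Cytosolic enzymes with and without the motif had similar medians, and the difference was not tested. The 7 with the motif had a median log2 ratio of 0.72, with 1 (TARS1) counted as higher in K562, and the 9 with an entry and no match had a median of 0.81, with 2 counted (WARS1 and FARSB). The ranges were 0.27 to 1.45 with the motif and -0.92 to 2.56 without. LARS1, VARS1 and YARS1, with no entry, had a median of 1.39, with 2 counted (LARS1 and YARS1).

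Lists of other genes from the same pathways were read beside the synthetases. Of 14 genes of cytosolic elongation and transfer RNA handling, 4 were higher in K562 (16.8% of all genes were) and 0 in HepG2 (21.9% of all genes). The median log2 ratio of this list was 0.92. EEF2, the translocase of elongation, had 29456 and 12927 reads, a ratio of 2.27 (2.22 to 2.32). PSTK, a kinase of the selenocysteine route, had 276 and 74, a ratio of 3.71 (2.86 to 4.87). EEF1A2, an elongation factor of muscle and nerve, had 53 and 2, and the editing protein AARSD1 had 45 and 7. EEF1A1 had only 18 and 9 uniquely mapped reads, and EEF1G had 17 and 2, under the minimum. These elongation factors were thus barely measured, and the reads of EEF1A2 and EEF1A1 do not give their relative levels. SSB, which binds new transfer RNA (ratio 1.51, 1.45 to 1.58), XPOT, their nuclear exporter (1.09, 0.989 to 1.19), and EEF1D, an exchange factor (1.09, 1.01 to 1.18), were not counted.

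Of 17 partners of mitochondrial translation, 2 were higher in K562 (16.8% of all genes were) and 0 in HepG2 (21.9% of all genes), with a median of 0.21. GATC, a subunit of the GatCAB amidotransferase that acts after EARS2, had 199 K562 and 44 HepG2 reads, a ratio of 4.50 (3.23 to 6.39), while the other subunits GATB (0.647, 0.573 to 0.731) and QRSL1 (1.25, 1.05 to 1.48) were not counted. MRRF, a ribosome recycling factor, had 305 and 97, a ratio of 3.13 (2.48 to 3.97). The most read partners were not counted: LRPPRC, which stabilizes mitochondrial messenger RNA, had 11107 and 15417 reads, the ribosomal protein PTCD3 3370 and 5834, the elongation factor TUFM 3426 and 3248, and GFM1 1570 and 1350.

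Genes of the amino acid response leaned to HepG2, with 15 intervals wholly below 1 and 6 wholly above. Of 25 with enough reads, 9 were higher in HepG2 (21.9% of all genes were), 1 in K562 (16.8% of all genes) and 15 in neither. The median log2 ratio was -0.63. ASNS, asparagine synthetase, was the 1 higher in K562, with 3082 and 1133 reads and a ratio of 2.71 (2.53 to 2.90). SLC38A2, an amino acid transporter, had 3652 and 30776 reads, 8.47-fold (8.18 to 8.76) more in HepG2. STC2, a secreted glycoprotein, was 13.9-fold (9.09 to 22.2) higher in HepG2.

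Enzymes that make amino acids were among those higher in HepG2. PSAT1 (385 and 3639 reads, 9.50-fold, 8.55 to 10.6), PSPH (128 and 1143, 8.97-fold, 7.47 to 10.9) and PHGDH (2723 and 6412, 2.37-fold, 2.26 to 2.48) are the 3 enzymes of serine synthesis. ALDH18A1, of proline synthesis, had 1244 and 7180 reads, 5.80-fold (5.46 to 6.16) more in HepG2. NUPR1, a stress-induced regulator of transcription, had 0 reads in K562 against 26 and was counted as higher in HepG2. ATF4 itself had 114 and 146 reads (1.29-fold more in HepG2, interval to 1.66), and the transporter subunit SLC3A2 had 3617 and 3605.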

How the data were processed

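Footprints over splice junctions were measured in 2 samples each of K562 and HepG2, pooled by line in the deposited tables. Per the file headers, the deposited tables hold raw read counts for each annotated junction, for all mapped and for uniquely mapped reads. cutadapt, Bowtie2 and STAR 2.6.0 and the build GRCh38 are named in the submitters' processing notes, without roles. No annotation release or counting program is given in the sources used here.

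Junctions were matched to GENCODE 29 introns. A gene's value is its sum of unique reads over junctions assigned to it alone (6033 of 350863 were not), with a minimum of 20 over K562 and HepG2 together. TMM factors (edgeR 4.0.16) set effective depth. K562 to HepG2 ratios have exact conditional binomial (Clopper-Pearson) 95% intervals, levels exact Poisson intervals, and shares exact binomial ones. Ratios of ratios come from the conditional odds ratio. Zero reads were replaced by a floor of 3. Without molecular identifiers, reads are not independent molecules. Junction shares asked for 20 or more reads at a site in each table. Scripts were tested on simulated data.

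Members, lists and rules were chosen with earlier results of these data known. By rule, sentences went to each member, and in the other lists to the 4 most read genes and up to 4 counted with the largest ratio in each direction. GATB, QRSL1, ATF4, EEF1A1, EEF1G, EPOR, the NARS1 junctions and the upstream exons of WARS1 were chosen after their values were seen. A planned search of protein sequences for catalytic signatures was not run. Some marker genes of the lines are not reported here.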

Additional observations from a re-analysis of the deposited data

Results flagged for a closer look

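Reads outside the comparisons were found in 4 of these genes. PARS2 had 5 reads in K562 and 0 in HepG2, under the minimum of 20, and all 5 lay on a junction of the 5′ untranslated region. At junctions assigned to a further gene as well, SARS2 had 198 reads in K562 and 337 in HepG2, VARS2 (with GTF2H4) had 467 and 278, and EEF1E1 (with EEF1E1-BLOC1S5) had 740 and 809. These exceed the reads of their own junctions for SARS2 and EEF1E1 in both lines and for VARS2 in K562, where it had 253, and which gene they come from was not tested.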

How the results depend on the processing

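No paired analysis was possible because both samples of a line are pooled in 1 table, whose columns carry no replicate; for the same reason no replicate could be left out. No gene counted in a direction reversed it under any of the alternatives run. Total-read scaling moved the most: 11 cytosolic enzymes were higher in K562 (median log2 ratio 1.23), 2 mitochondrial enzymes in K562 and 1 in HepG2 (median 0.47), and 0 scaffolds in HepG2 (median -0.25). Over all genes it gave 2656 higher in K562 and 1925 in HepG2, 58.0% in K562 against 43.3%. The scaffold count in HepG2 was also 0 with all mapped reads, with the most-read junction left out and with junctions of more than 1 gene counted, which gave a scaffold median of -0.24 and 1 mitochondrial enzyme in HepG2. Principal coding junctions gave 7 cytosolic enzymes higher in K562 (median 0.88), with CARS1 and EPRS1 added, and 1555 of 9986 genes of the whole table. Leaving out junctions under 60 coding bases from the start codon as well, an alternative chosen after seeing the data, gave 9 cytosolic enzymes (median 0.91) and 2 mitochondrial enzymes in K562. Of the whole table, 1504 of 9836 genes were then higher in K562. Without the most-read junction the mitochondrial share in K562 was 8.78%. At 50 reads per site 492 junctions were counted over all genes, at 10 points 3 in these genes. At 50 reads per junction 14 genes had every junction on 1 side, against 9 of 36. The longer promoter motif was in 2 cytosolic and 0 mitochondrial enzymes. DESeq2 1.42.0 size factors, 99% intervals and minimums of 1 and 100 reads changed no call of a member. Genes with few reads, such as WARS2 and SARS2, have wide intervals, and depth limits what can be said of their junctions.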

Other observations

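Reads over junctions of the 5′ untranslated region were few in the synthetase genes. They made up 0.79% (0.735 to 0.856) of cytosolic synthetase reads in K562 and 0.27% (0.225 to 0.317) in HepG2, against 6.47% and 3.29% over all genes. WARS1 alone held 524 of these 675 cytosolic reads in K562 and 39 of 136 in HepG2, so the gap between the lines rests on that gene. For the mitochondrial enzymes the shares were 1.29% (1.06 to 1.55) and 0.64% (0.480 to 0.837). In WARS1 they made up 8.53% (7.85 to 9.26) of reads in K562 and 3.75% (2.68 to 5.10) in HepG2, the highest share of a cytosolic enzyme in each line. In FARS2 they made up 32.0% (24.1 to 40.9) of 128 K562 reads and 17.1% (9.43 to 27.5) of 76 HepG2 reads, with intervals that overlap.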
